A study of Mus musculus with 6 samples.

Results

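The 10 genes Pdgfra, Ly6a, Gsn, Dpt, Cd248, Pi16, Mfap5, Clec3b, Smoc2 and Fbn1 are markers of fibro-adipogenic progenitors, and their levels in sorted satellite cells were read as a check of carry-over in the sort. They were taken by symbol from a table of 24980 genes, and all 10 were found in it. RNA-seq had been done on satellite cells, the stem cells of skeletal muscle, sorted from the hindlimb of adult mice of strain C57BL6/J. The 3 KO libraries came from mice labelled scERα KO, whose satellite cells carried a Cre-induced targeting of Esr1, the estrogen receptor α gene, and the 3 WT libraries from mice labelled scERα WT. Mice of both labels were given a total of 10 mg tamoxifen, the inducer of Cre. The promoter driving Cre, whether WT mice carried Cre, the sex of the mice, the antibodies of the sort and the number of mice behind a library are not given in the sources used here. A p-value here therefore refers to the spread among libraries, part of which may be technical.

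Fibro-adipogenic progenitors are mesenchymal cells of the muscle interstitium. They carry the receptor PDGFRα and the surface antigen Sca-1, lay down matrix, can turn into adipocytes or fibroblasts, and release factors that act on satellite cells after injury. Satellite cells and fibro-adipogenic progenitors share some surface proteins, and Sca-1 is widely used in mouse to keep the progenitors and endothelial cells out of a satellite cell sort. Several of the other markers, gelsolin and the matrix genes among them, are also transcribed in other cell types.

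The values are TPM, a transcript abundance scaled for transcript length, so that genes can be compared with each other. The listed values added up to between 295306 and 334382 TPM per library, and TPM keeps no depth, so the counting error of low values is unknown. The targeted gene Esr1 lay at 2.92, 3.69 and 3.87 TPM in KO libraries, against 7.53, 6.96 and 6.94 TPM in WT libraries. Each of the 6 libraries was on the side its label names, a pattern of KO below WT found in 3.07% of all genes tested. The difference on the log2(TPM + 1) scale was -0.86 (SE 0.13), with a limma adjusted p = 0.0925. At the threshold of 0.05 the targeted gene itself was therefore not called, so a missing call does not show an unchanged gene. Satellite cell markers stood high: the 12 genes of that list summed to between 511 and 631 TPM in KO libraries, against 497 to 667 TPM in WT libraries, and none of them averaged under 1 TPM. Sdc4 alone held between 157 and 266 TPM of that sum, and Pax7 between 17.9 and 32.8 TPM.

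The markers fell into an abundant and a scarce set. Gsn, Dpt and Fbn1 held between 96.2% and 98.8% of the summed TPM of the 10 markers in each library. The other 7, the receptor gene Pdgfra among them, ranged between 0.05 and 2.24 TPM. None of the 10 was listed at 0 in any library. The mean over the 6 libraries was under 1 TPM for 6 of the 10, and 5 stayed under 1 TPM in every library. Against the name of the list, its defining receptor gene therefore lay at 0.31 TPM or less while 3 matrix or cytoskeletal members were plentiful. The mark of 1 TPM depends on the scale. The 6 with a mean under 1 TPM summed to between 0.96 and 2.88 TPM per library as deposited. With protein-coding genes alone, rescaled to the mean listed total, they summed to between 2.99 and 8.49 TPM.

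**Figure D1:**
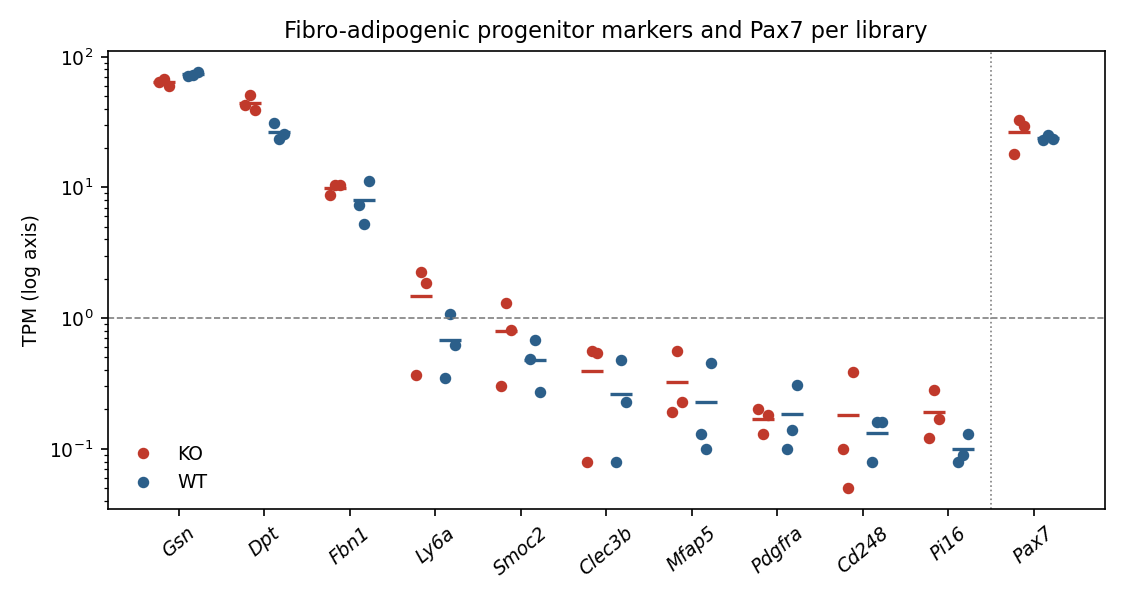
TPM of the 10 fibro-adipogenic progenitor markers, ordered by mean, and of the satellite cell gene Pax7 (right of the dotted line) in 3 KO and 3 WT libraries; the y axis is logarithmic, points are libraries, short lines are group means and the dashed line marks 1 TPM. Gsn, Dpt and Fbn1 lie at 5.28 TPM or more in every library, and Pdgfra at 0.31 TPM or less.

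Promoter sequence of RefSeq (GRCm38.p6, 250 bases before to 50 after a start, 5′ to 3′ on the gene's strand) is shown for 3 members: Dpt, abundant and the 1 with an unadjusted p under 0.05; Gsn, the most abundant; and Pdgfra, the defining receptor gene, among the scarce ones. Windows for 5 of the 10 members were matched. Capitals mark each match to CANNTG, the E-box letters that myogenic and other helix-loop-helix factors can bind, which read alike on both strands. The hexamer AGGTCA and its reverse complement TGACCT, the letters of an estrogen response element's arm, were searched as well and do not occur in these 3 windows; among all 32851 promoter windows 16.3% hold either.

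Dpt, chr1:164796413-164796712, plus strand: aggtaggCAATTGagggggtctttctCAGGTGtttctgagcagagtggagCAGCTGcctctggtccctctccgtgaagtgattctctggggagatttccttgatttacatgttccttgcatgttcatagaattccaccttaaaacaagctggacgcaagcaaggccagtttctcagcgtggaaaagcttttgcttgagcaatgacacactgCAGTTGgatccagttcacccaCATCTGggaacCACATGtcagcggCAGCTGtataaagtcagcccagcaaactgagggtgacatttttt

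Gsn (the first of its 3 windows), chr2:35256109-35256408, plus strand: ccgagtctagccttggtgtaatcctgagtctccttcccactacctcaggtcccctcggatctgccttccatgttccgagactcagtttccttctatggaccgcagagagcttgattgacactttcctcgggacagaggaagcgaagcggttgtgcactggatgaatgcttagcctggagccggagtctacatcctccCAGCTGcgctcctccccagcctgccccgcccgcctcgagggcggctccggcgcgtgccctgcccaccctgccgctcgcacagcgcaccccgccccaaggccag

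Pdgfra, chr5:75152001-75152300, plus strand: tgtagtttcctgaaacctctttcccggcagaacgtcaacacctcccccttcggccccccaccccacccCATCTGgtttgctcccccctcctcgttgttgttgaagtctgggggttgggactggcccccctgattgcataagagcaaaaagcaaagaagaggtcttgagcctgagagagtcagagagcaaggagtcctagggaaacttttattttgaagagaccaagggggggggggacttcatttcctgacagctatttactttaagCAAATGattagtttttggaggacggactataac

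The Dpt window holds 7 matches to CANNTG, the Gsn window shown 1 and the Pdgfra window 2. The other 2 Gsn windows hold 3 and 2, and 1 of them also holds 1 match to the hexamer. At least 1 match was found in 72.3% of all promoter windows, at least 2 in 39.6% and at least 7 in 0.177%, or 58 of 32851. The Fbn1 and Pi16 windows hold 1 each. These are counts of letters in a window whose comparison was chosen after the values were seen, and draw nothing about binding.

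Among the surface markers, Pdgfra (chromosome 5, 75152292 to 75198215, plus strand), which encodes the receptor for platelet-derived growth factors that defines the progenitors, held 0.20, 0.13 and 0.18 TPM in KO libraries, against 0.10, 0.14 and 0.31 TPM in WT libraries. The groups overlapped, with the lowest and the highest value both in WT. Pax7, the transcription factor that marks satellite cells, was between 75.2 and 252 times the level of Pdgfra across the 6 libraries. Pdgfra did not reach 1 TPM in 3 libraries, the filter for testing, and an exact two-sided permutation test of the KO and WT libraries gave p = 0.9, where 0.1 is the smallest value that 3 against 3 libraries allow.

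Ly6a (chromosome 15, 74994877 to 74998031, minus strand), which encodes Sca-1, held 0.37, 2.24 and 1.85 TPM in KO libraries, against 0.35, 1.08 and 0.62 TPM in WT libraries. KO library 1 lay beside WT library 1 at the bottom and KO libraries 2 and 3 at the top, so the groups overlapped. The difference on the log2(TPM + 1) scale was 0.49 (SE 0.32), with a limma adjusted p = 0.61 (Benjamini-Hochberg over 8971 genes tested). Without KO library 1 it was 0.87 (limma unadjusted p = 0.00303, adjusted p = 0.203), and without KO library 2 it was 0.25 (adjusted p = 0.926). Adding 1 makes the change of a low gene look smaller than it was. Ly6 genes are close in sequence and may share reads, which makes the value uncertain.

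Endothelial cells of the mouse also carry Sca-1, and 2 genes read in them were set beside Ly6a. Pecam1, an adhesion molecule of endothelial cells, held 1.97, 5.07 and 4.56 TPM in KO libraries, against 1.74, 3.40 and 3.18 TPM in WT libraries. Ly6c1, a relative of Ly6a found on endothelial and immune cells that may share reads with it, held 0.88, 3.17 and 2.50 TPM in KO libraries, against 0.74, 1.83 and 1.46 TPM in WT libraries. Both were lowest in KO library 1 and WT library 1, and both ranked the 6 libraries as Ly6a did, from KO library 2 at the top through KO library 3, WT library 2, WT library 3 and KO library 1 to WT library 1. Of the other 8970 genes tested, 97 (1.08%) had that order; it was compared after the values were seen. It was not common to the lists: 1 of the 8 endothelial markers (Pecam1) and 1 of the 7 mural markers (Rgs5) had it. Besides Ly6a, 1 of the 10 fibro-adipogenic progenitor markers had it too: Clec3b, which lay below the filter and was equal in KO library 1 and WT library 1. Tek, an angiopoietin receptor of endothelial cells, was highest in WT library 2, at 6.63, 8.17 and 6.26 TPM in KO libraries, against 6.17, 8.32 and 6.04 TPM in WT libraries. Kcnj8, a potassium channel gene of mural cells, lay below WT in every KO library, at 0.25, 0.25 and 0.16 TPM in KO libraries, against 0.26, 0.57 and 0.39 TPM in WT libraries. That pattern was found in 2.31% of the 20506 genes above 0 in at least 1 library. Of the 7 mural markers, 5 had a higher value in KO. Notch3, with the smallest p of that list, lay above WT in every KO library (13.5% of all genes tested). It averaged 21.6 ± 1.64 TPM in KO and 16.8 ± 2.25 TPM in WT (SD, n = 3 each, limma adjusted p = 0.442). The summed level of the 8 endothelial markers ranged between 11.4 and 22.8 TPM in KO libraries, against 11.3 to 17.1 TPM in WT libraries, and 0 of the 8 were at 0 in a library. Tek alone held between 6.04 and 8.32 TPM of that sum, so the sum varied less than the other genes did together. The part of endothelial RNA in the Ly6a values was not tested, and in bulk libraries fewer cells of a type and less RNA per cell cannot be told apart.

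Cd248 (chromosome 19, 5068078 to 5070682, plus strand), which encodes endosialin, a membrane glycoprotein of stromal cells, held 0.10, 0.05 and 0.39 TPM in KO libraries, against 0.08, 0.16 and 0.16 TPM in WT libraries. The KO group held both the lowest and the highest value. KO library 2, the highest for Ly6a, was the lowest for Cd248.

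Of the secreted markers, Dpt (chromosome 1, 164796644 to 164824266, plus strand) encodes dermatopontin, a small matrix protein that binds decorin and collagen fibrils. It held 42.7, 50.9 and 39.1 TPM in KO libraries, against 31.1, 23.4 and 25.8 TPM in WT libraries. Every KO library lay above every WT library, with means of 44.2 ± 6.01 TPM in KO and 26.8 ± 3.91 TPM in WT (SD, n = 3 each), a ratio of 1.65. The log2 difference was 0.70 (SE 0.16), and the limma adjusted p = 0.185 (Benjamini-Hochberg over all genes tested) did not pass the threshold of 0.05. Unadjusted, limma gave p = 0.00225, and an exact two-sided permutation test gave 0.1, the smallest value possible.

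By mean level Dpt ranked 463 of the 24980 genes. Of all genes tested, 7.89% had an unadjusted p under 0.05 with a higher value in KO and 2.66% with a lower one, and in 13.5% every KO library lay above every WT library, so Dpt was 1 of many genes with such a pattern. The ratio of Dpt to Dcn, the gene of a proteoglycan that its protein binds, was 5.83, 3.90 and 4.76 in KO libraries, against 3.76, 1.74 and 2.98 in WT libraries, and did not overlap between the groups. The ratio of Dpt to Fbn1 overlapped, at 4.84, 4.84 and 3.73 in KO libraries, against 4.23, 4.44 and 2.29 in WT libraries. The ratio of Dpt to Pax7 overlapped too, at 2.38, 1.55 and 1.33 in KO libraries, against 1.35, 0.924 and 1.11 in WT libraries. These ratios were chosen after the values were seen and were not tested.

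KO library 1 stood differently among the markers. It had the second highest value of Dpt and of Pdgfra among the 6 libraries, while it held the lowest endothelial sum of the KO group and, with WT library 1, the lowest levels of Ly6a and Clec3b. The order of the libraries for Dpt was shared by 18 of the other 8970 genes tested (0.201%). Among the tested genes of the marker lists, Scara5 was the 1 that shared it. Scara5, a ferritin receptor found in fibroblast-like cells, held 2.72, 3.07 and 2.42 TPM in KO libraries, against 1.33, 0.76 and 0.80 TPM in WT libraries (log2 difference 0.94, SE 0.15, limma adjusted p = 0.0953).

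Smoc2 (chromosome 17, 14279506 to 14404790, plus strand), a matricellular protein related to SPARC, held 0.30, 1.30 and 0.81 TPM in KO libraries, against 0.49, 0.68 and 0.27 TPM in WT libraries. Clec3b (chromosome 9, 123150946 to 123157432, plus strand), which encodes tetranectin, a plasminogen-binding lectin, held 0.08, 0.56 and 0.54 TPM in KO libraries, against 0.08, 0.48 and 0.23 TPM in WT libraries. In both genes KO libraries 2 and 3 were the highest and KO library 1 was among the lowest of the 6. Pi16 (chromosome 17, 29317680 to 29330593, plus strand), a secreted member of the CAP family that marks a widespread fibroblast population, held 0.12, 0.28 and 0.17 TPM in KO libraries, against 0.08, 0.09 and 0.13 TPM in WT libraries. Its groups overlapped through KO library 1 and WT library 3.

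The pair of microfibril genes differed in level. Fbn1 (chromosome 2, 125300594 to 125507993, minus strand), which encodes fibrillin-1, the main subunit of microfibrils, held 8.81, 10.5 and 10.5 TPM in KO libraries, against 7.34, 5.28 and 11.3 TPM in WT libraries. The highest value was that of WT library 3, so the groups overlapped (log2 difference 0.34, SE 0.23, limma adjusted p = 0.629). Without WT library 2 the difference was 0.11, and without WT library 3 it was 0.59 (limma adjusted p = 0.751 and 0.441). Mfap5 (chromosome 6, 122505845 to 122529290, plus strand), a glycoprotein that sits on microfibrils, was scarce, at 0.19, 0.56 and 0.23 TPM in KO libraries, against 0.13, 0.10 and 0.45 TPM in WT libraries.

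Gsn (chromosome 2, 35256380 to 35307892, plus strand) encodes gelsolin, which severs and caps actin filaments in the cytosol and has a secreted plasma form. It was the most abundant of the 10 and ranked 291 of the 24980 genes. It held 63.9, 67.1 and 60.2 TPM in KO libraries, against 70.9, 72.9 and 77.0 TPM in WT libraries. Every KO library lay below every WT library, a pattern found in 3.07% of all genes tested. The means were 63.8 ± 3.44 TPM in KO and 73.6 ± 3.12 TPM in WT (SD, n = 3 each), and the log2 difference of -0.21 (SE 0.13) had a limma adjusted p = 0.60. The table sums transcripts per gene, so the cytosolic and the plasma form are not resolved.

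**Figure D2:**
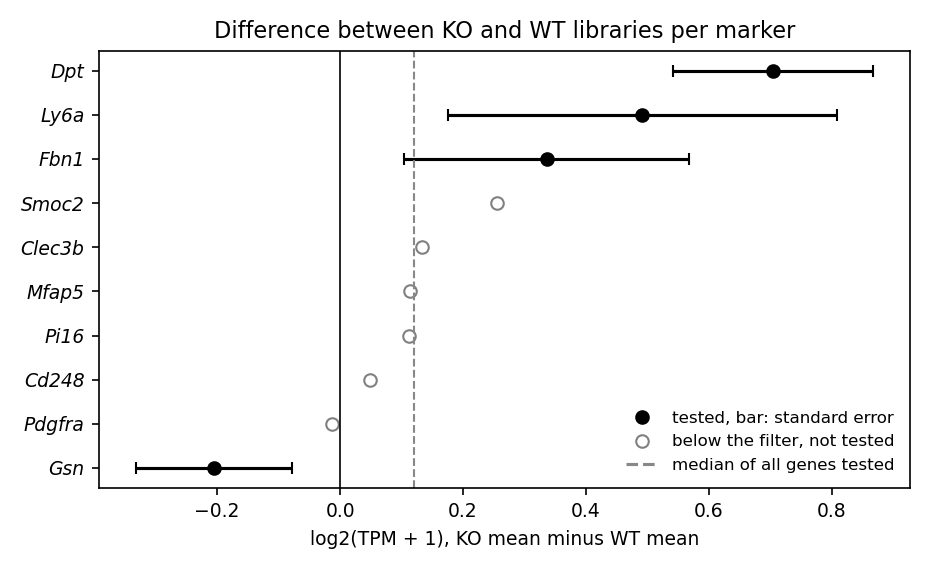
Difference of the mean log2(TPM + 1) of KO libraries from that of WT libraries for the 10 markers; filled points with standard errors were tested, open points lay below the filter, and the dashed line is the median of all genes tested. On this scale Dpt stands highest at 0.70 and Gsn lowest at -0.21; by the ratio of mean TPM, Ly6a at 2.18, Pi16 at 1.90 and Smoc2 at 1.67 exceed Dpt at 1.65. The 6 below the filter lie between -0.013 and 0.26 on the log2 scale.

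Over the whole list, 4 of the 10 markers (Gsn, Dpt, Fbn1 and Ly6a) had 1 TPM or more in at least 3 libraries and were tested, and 0 passed the adjusted threshold by limma. Dpt was the 1 with an unadjusted p under 0.05. Of all 8971 genes tested, 0.0334% were called higher in KO and 0.0223% lower. Of the 6 markers below the filter none was tested across genes, and their exact permutation p ranged between 0.2 and 0.9. Of all 10, 8 had a higher and 2 (Gsn and Pdgfra) a lower value in KO, with a median log2 difference of 0.12. In 1 of the 10 (Dpt) every KO library lay above and in 1 (Gsn) below every WT library, against 9.13% and 2.31% of the 20506 genes above 0 in at least 1 library. The median was 0.12 over all genes tested and 0.047 over the 20506 genes above 0 in at least 1 library, of which 68.6% had a higher value in KO; the markers' share is near that background. The summed TPM of the 10 averaged 121 ± 10.6 in KO and 110.4 ± 5.997 in WT (SD, n = 3 each), a log2 ratio of the means of 0.14 that turned to -0.027 under median-of-ratios scaling.

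The scarce markers varied between libraries more than between groups. The 6 below the filter summed to 0.99, 2.88 and 2.32 TPM in KO libraries, against 0.96, 1.65 and 1.55 TPM in WT libraries. The means of 2.06 ± 0.971 TPM in KO and 1.39 ± 0.373 TPM in WT (SD, n = 3 each) lay within the spread of the KO libraries. KO library 1 and WT library 1 were alike at the bottom, and KO libraries 2 and 3 at the top. KO library 2 was the highest library for 6 of the 10 markers, and for 37.0% of all genes tested. Muscle fibre markers were also spread within the KO group, summing to 7.61, 43.7 and 38.8 TPM in KO libraries, against 11.9, 15.1 and 30.1 TPM in WT libraries. The mural markers summed to 38.1, 58.1 and 53.9 TPM in KO libraries, against 38.3, 38.8 and 38.1 TPM in WT libraries. No gene of either list was at 0 in a library. The 7 Schwann cell markers summed to 6.81, 13.5 and 19.6 TPM in KO libraries, against 4.60, 5.46 and 7.02 TPM in WT libraries. The 8 leukocyte markers summed to 5.69, 7.99 and 11.8 TPM in KO libraries, against 3.24, 11.9 and 9.68 TPM in WT libraries, with Ptprc, the pan-leukocyte gene, at 0.29 TPM or less. The part of RNA from these cells in the levels of the scarce markers was not tested.

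**Figure D3:**
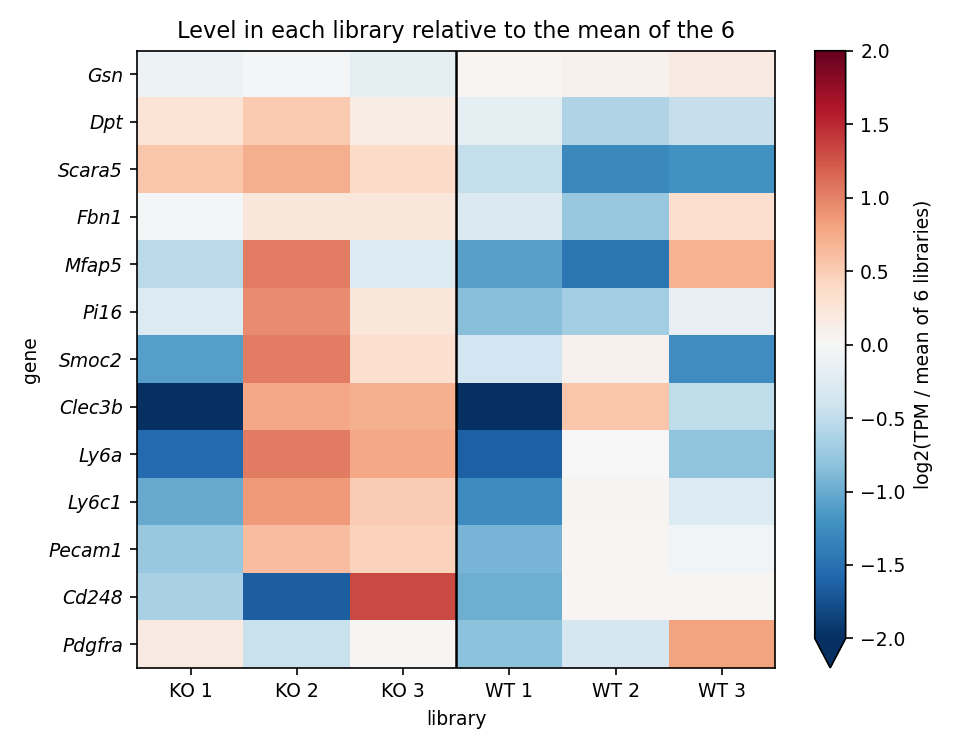
Level of the 10 markers and of Scara5, Ly6c1 and Pecam1 in each library relative to the gene's mean over the 6 libraries, as log2 of the ratio (colour, with the arrowed end of the scale for lower values); the vertical line separates 3 KO from 3 WT libraries. Dpt and Scara5 are above their mean in all 3 KO libraries, while Ly6a, Ly6c1, Pecam1, Clec3b and Smoc2 are high in KO libraries 2 and 3 and low in KO library 1.

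Of 18 further genes of fibro-adipogenic progenitors and fibroblasts, 12 averaged 1 TPM or more; 0 were called by limma, while an unadjusted p under 0.05 was reached by 4 of the 12 tested, all higher in KO (7.89% of all genes tested), and the median log2 difference was 0.15. Dcn, the proteoglycan decorin that dermatopontin binds, held 7.32, 13.03 and 8.23 TPM in KO libraries, against 8.26, 13.4 and 8.66 TPM in WT libraries, with no separation of the groups. Col3a1, a fibrillar collagen chain, held 48.4, 45.0 and 71.3 TPM in KO libraries, against 40.9, 21.8 and 117 TPM in WT libraries, the extremes both in WT. Lum, another collagen-binding proteoglycan, stayed between 0.27 and 1.01 TPM, and the mesenchymal transcription factor gene Twist2 was at 0 in 4 of the 6 libraries.

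The other 3 of that list with the smallest p besides Scara5 were Mmp2, Ddr2 and Col1a2. Mmp2, a gelatinase, averaged 27.0 ± 0.481 TPM in KO and 17.5 ± 4.39 TPM in WT (SD, n = 3 each; limma adjusted p = 0.27). Ddr2, a collagen receptor, averaged 9.74 ± 1.24 TPM in KO and 6.57 ± 1.38 TPM in WT (limma adjusted p = 0.305). In both every KO library lay above every WT library, as in 13.5% of all genes tested. Col1a2, a chain of collagen I, averaged 3.46 ± 1.95 TPM in KO and 1.25 ± 0.605 TPM in WT and overlapped (limma adjusted p = 0.346).

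**Figure D4:**
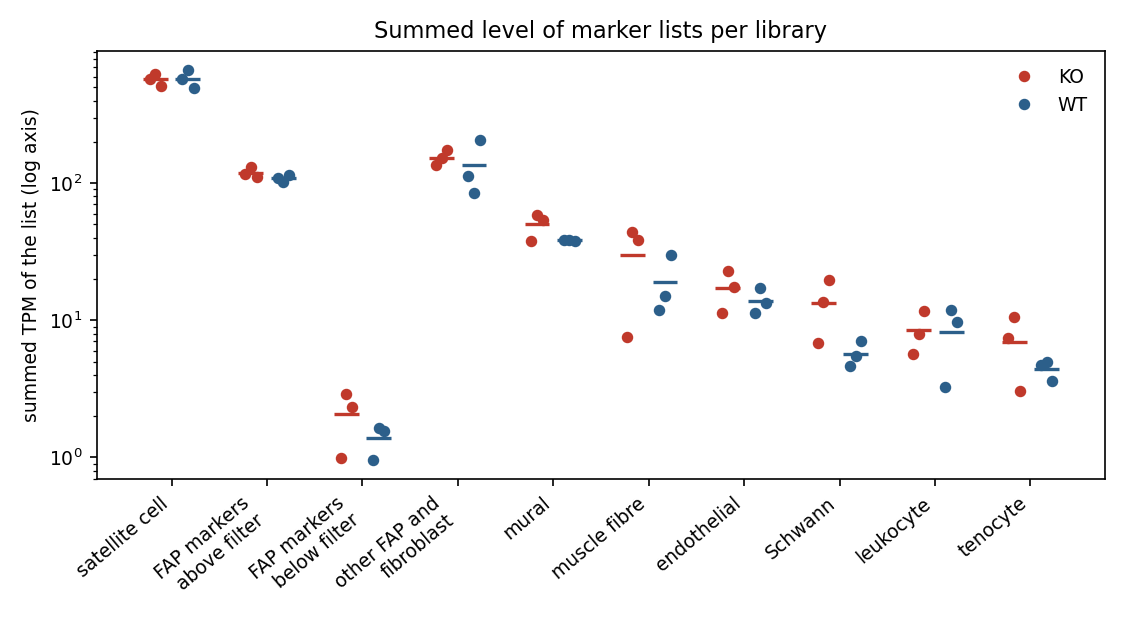
Summed TPM of marker lists in 3 KO and 3 WT libraries on a logarithmic y axis; points are libraries and short lines group means, and the 10 fibro-adipogenic progenitor (FAP) markers are split into the 4 above and the 6 below the filter. The 6 markers below the filter sum to 2.88 TPM at most, and were split off for their low values, so this sum does not compare with those of whole lists. The 4 above the filter sum to between 103 and 131 TPM, all 10 to between 104 and 134 TPM, and satellite cell markers to 497 TPM or more.

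Single-cell studies usually tell apart a progenitor-like state with Pi16 and Dpp4 from a more interstitial fibroblast state with Smoc2 and Col15a1. Of 10 further genes of the Pi16 side, 6 were tested and 0 called by limma, while an unadjusted p under 0.05 was reached by 1 higher and 2 lower in KO (7.89% and 2.66% of all genes tested). Over the 10, every KO library lay above every WT library in 3 (Cd55, Sema3c and Pcolce2) and below in 2 (9.13% and 2.31% of the 20506 genes above 0 in at least 1 library). Its defining surface peptidase gene Dpp4 reached 0.10 TPM at most. Gfpt2, an enzyme of hexosamine synthesis, averaged 12.8 ± 3.46 TPM in KO and 25.0 ± 4.52 TPM in WT, and Anxa3, an annexin, 8.62 ± 1.19 TPM in KO and 15.5 ± 4.05 TPM in WT (SD, n = 3 each; limma adjusted p = 0.192 and 0.234). Gfpt2 and Anxa3 were the 2 that lay below WT in every KO library. Igfbp6, an IGF-binding protein, averaged 2.06 ± 0.597 TPM in KO and 1.10 ± 0.483 TPM in WT (limma adjusted p = 0.368).

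Of 6 further genes of the Smoc2 side, 3 were tested and 0 called by limma, and 1, higher in KO, had an unadjusted p under 0.05 (7.89% of all genes tested). Col15a1, a basement membrane collagen also read in other cells, held 25.8, 22.3 and 32.2 TPM in KO libraries, against 15.1, 6.33 and 12.3 TPM in WT libraries (log2 difference 1.24, SE 0.28, limma adjusted p = 0.185). Gdf10, a BMP family ligand typical of that state in mouse, was at 0.03 TPM or less in every library. Abca8a, a lipid transporter, and Hsd11b1, which activates glucocorticoids, were plentiful and close between the groups: Abca8a averaged 18.2 ± 2.95 TPM in KO and 19.5 ± 0.897 TPM in WT, and Hsd11b1 7.99 ± 0.933 TPM in KO and 7.59 ± 0.838 TPM in WT (SD, n = 3 each).

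Around PDGFRα itself, the ligand gene Pdgfa averaged 4.34 ± 1.06 TPM in KO and 2.63 ± 0.1498 TPM in WT (SD, n = 3 each; limma adjusted p = 0.262), and the receptor-like gene Pdgfrl 5.21 ± 0.173 TPM in KO and 3.74 ± 0.829 TPM in WT (limma adjusted p = 0.39). Every KO library lay above every WT library in both (13.5% of all genes tested). The other 4 of these 6 genes, among them the sister receptor gene Pdgfrb at 0.40 to 0.81 TPM, stayed below the filter. Of 6 niche factors that the progenitors are known to make, all 6 had a higher value in KO, as did 68.6% of the 20506 genes above 0 in at least 1 library, and 0 were called by limma. Ccn4, a matricellular protein, averaged 3.60 ± 0.268 TPM in KO and 2.29 ± 0.476 TPM in WT, and the laminin chain gene Lama2 23.1 ± 1.82 TPM in KO and 18.7 ± 0.850 TPM in WT (limma adjusted p = 0.243 and 0.48).

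Of 14 genes of microfibrils and elastic fibres, the partners of Fbn1 and Mfap5, 6 were tested and 0 called by limma, while an unadjusted p under 0.05 was reached by 2, both higher in KO (7.89% of all genes tested). Emilin1, a glycoprotein of elastic fibres, averaged 2.92 ± 0.488 TPM in KO and 1.503 ± 0.1501 TPM in WT (SD, n = 3 each; limma adjusted p = 0.153). Ltbp1, which tethers latent TGF-β to fibrillin, averaged 22.5 ± 4.57 TPM in KO and 14.9 ± 4.27 TPM in WT (limma adjusted p = 0.396). In both every KO library lay above every WT library (13.5% of all genes tested). The sister fibrillin gene Fbn2 reached 0.09 TPM at most, far below Fbn1. Of 6 adipocyte genes, 3 were tested and 0 called by limma. The hormone gene Adipoq and the lipid droplet gene Plin1 were at or under 0.04 TPM. Fabp4, a fatty acid binding protein also found in capillary endothelium, held 6.27, 34.05 and 19.6 TPM in KO libraries, against 9.89, 15.7 and 11.1 TPM in WT libraries, and overlapped between the groups. The 6 tenocyte markers summed to 7.41, 10.5 and 3.04 TPM in KO libraries, against 4.69, 4.97 and 3.62 TPM in WT libraries.

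Among all genes tested, those whose centred log2(TPM + 1) profile over the 6 libraries lay nearest to the mean profile of the 4 tested markers were Ttc3, Ech1, Tmem106b, Prkacb, Adprhl2, Ccdc66, Micu2 and Slc30a1, at root mean square distances between 0.0386 and 0.0558 on the log2 scale. The median distance over all genes tested was 0.236. The tested markers themselves lay at distances of 0.230 for Fbn1, 0.255 for Dpt, 0.297 for Gsn and 0.344 for Ly6a. Although each marker is part of that mean, 3 of the 4 lay farther from it than the median gene did. This distance grows with the size of a gene's changes as well as with their direction, so it cannot show whether the 4 varied together. They ranked the 6 libraries in 4 different orders.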

How the data were processed

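The authors deposited TPM per gene symbol for 6 libraries, 3 KO and 3 WT, scaled for transcript length and library total; the listed values add up to between 29.5% and 33.4% of the TPM scale. Per the submitters' processing notes the tools were kallisto, Trimmomatic 0.33, CASAVA and FastQC and the builds GRCm38 and mm10; the annotation, the summing per gene and strandedness are not given in the sources used here. Of 24980 symbols, 26 had been turned into dates and were named nowhere. Libraries were numbered in accession order within a group, and depth is unknown.

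The 8971 genes that reached 1 TPM in 3 or more libraries of either group were tested two-sided in limma 3.58.1 (R 4.3.3; lmFit, then eBayes with a trend) after the transformation log2(TPM + 1). Benjamini-Hochberg adjustment ran over all of them, at a threshold of 0.05. Genes below the filter got exact permutation tests. The procedure was checked on simulated data. The members and gene lists were chosen with earlier results of these data known. Named were the members, Esr1, up to 4 tested genes with the smallest p per list, and the 8 nearest profiles. Pax7, Sdc4, Kdr, Emcn, Tie1, Cldn5, Egfl7, Kcnj8, Sema3c, Pcolce2, Dcn, Col3a1, Lum, Twist2, Dpp4, Gdf10, Pdgfrb, Ptprc, Fbn2, Adipoq and Plin1 were named after their values were seen. Ccn4 was matched through its older symbol. Coordinates are GENCODE vM21 (GRCm38, 1-based). Alternatives were pseudocounts, filters, scalings, eBayes settings, library weights and leaving out each library.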

Additional observations from a re-analysis of the deposited data

How the results depend on the processing

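No marker was called in either direction under any of the 16 alternatives run, and Dpt, Gsn, Fbn1 and Ly6a kept their direction in all of them. The 6 markers below the filter were tested across genes only in the alternative with no filter. Of these, Pdgfra, Cd248 and Mfap5 changed sign in some alternatives. The log2 difference of Dpt ranged between 0.52 and 0.81 and its limma adjusted p between 0.0528 (protein-coding genes alone, rescaled) and 0.438 (without KO library 3). That of Gsn ranged between -0.35 and -0.14, with an unadjusted p of 0.0447 after quantile normalization and 0.0293 after median-of-ratios scaling; that of Ly6a ranged between 0.18 (pseudocount 5) and 0.87 (without KO library 1), with unadjusted p = 0.00303 without KO library 1 and 0.00974 with estimated library weights. The median over the 10 markers, 0.12, became 0.41 at a pseudocount of 0.1 (all genes tested 0.16), 0.031 at a pseudocount of 5 (all genes 0.058), 0.29 with protein-coding genes alone, rescaled (all genes 0.21), 0.094 under median-of-ratios scaling (all genes 0.0087) and 0.059 to 0.25 with 1 library left out. The log2 ratio of the markers' summed TPM, 0.14, became -0.027 under median-of-ratios scaling.

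Over all genes, the limma calls were 3 higher and 2 lower in KO. Higher calls became 0 at a pseudocount of 0.1, with no filter and with a mean TPM of 1 or more, 1 under quantile normalization or median-of-ratios scaling, 38 with protein-coding genes alone, 17 with robust eBayes and 53 with estimated library weights, and 0 to 4 with 1 library left out. Lower calls became 0 at a pseudocount of 5, with no filter and with a mean TPM of 1 or more, 48 with protein-coding genes alone, 16 with robust eBayes and 27 with estimated library weights, and 0 to 2 with 1 library left out. The causes were not tested. No paired analysis was possible because the numbers in the labels differ between all libraries. The unknown depth limits what the levels of the 6 markers below the filter can show.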
